A study of Saccharomyces cerevisiae with 8 samples.

Results

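The DNA replication machinery of budding yeast is described here by 45 genes, chosen by name for their known roles at origins and forks. No measured value entered the rule, but the choice was made with earlier results of these data known. Some fork genes, such as MCM4, MCM5, MCM7, POL31 and DNA2, are not among the 45. All 45 were found among the 6532 entries of the count table, and all 45 passed the filter on low counts. They encode the origin recognition complex, the factors that license and fire origins, the replicative helicase, DNA polymerases alpha, delta and epsilon, the sliding clamp and its loader, the single-strand binding protein, the enzymes that finish Okazaki fragments, and proteins that couple the parts of the fork. Transcript levels and poly(A) tail lengths come from PAT-seq, a method that reads each polyadenylated RNA from its 3′ end along with a stretch of its tail.

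All 8 libraries came from strain BY4741, with the genotype MATa his3Δ1 leu2Δ0 met15Δ0 ura3Δ0, a haploid laboratory strain that cannot make uracil, histidine, leucine or methionine. The Log phase libraries are of cells in liquid medium at mid log phase. Such cells were also diluted and spread on plates, and the colonies were taken on Day 2, Day 3 or Day 4, so that each of the 4 groups has 2 libraries. The design text of the series asks about gene expression and alternative polyadenylation; poly(A) site choice was not analysed here. Medium, growth form and time in culture changed together between Log phase and the colonies and cannot be told apart. The labels do not say whether the replicates were separate cultures, so a p-value here speaks of the spread between libraries, which may be technical.

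Replication starts at origins bound by the origin recognition complex, where Cdc6 and Cdt1 load the ring-shaped MCM complex in G1 phase. Cyclin-dependent kinase and Dbf4-dependent kinase then recruit Cdc45 and GINS to form the active helicase, polymerase alpha with primase starts each new strand, and polymerases epsilon and delta extend the leading and lagging strands. Many of the genes are transcribed in a burst at the end of G1 under the factors MBF and SBF, so their mRNAs are most abundant in cells about to enter or passing through S phase.

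Total counts ran from 6203115 in Day 2 replicate 1 to 8441949 in Log phase replicate 1, and 5930 genes were tested for expression. Levels are CPM, counts scaled to library size, after TMM normalisation, which scales each library to the bulk of its genes. Changes are log2 fold changes ± SE from edgeR's quasi-likelihood test with 2 libraries per group. A gene is said to rise or fall where its Benjamini-Hochberg adjusted p over all genes tested is below 0.05. The Day 2 libraries agreed least, with a median absolute log2 difference of 0.259. It was 0.167 in Log phase, 0.19 on Day 3 and 0.144 on Day 4. Because the groups share their estimate of spread, the SE of Day 2 changes may be too small. The replication genes took 0.282% and 0.277% of all counts in Log phase, 0.204% and 0.227% on Day 2, 0.219% and 0.210% on Day 3, and 0.220% and 0.209% on Day 4. Counts for SLD5 and MCM10 differed by more than 2-fold between the authors' count and gene tables, so both are uncertain.

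Most replication genes were lower in colonies than in Log phase. On Day 2, 0 of 45 rose and 28 fell (62.2%), beside 28.3% of all genes tested that rose and 28.2% that fell. On Day 3, 2 rose and 32 fell (71.1%), beside 34.5% and 34.4% of all genes, and on Day 4, 3 rose and 31 fell (68.9%), beside 37.2% and 37.0%. The median log2 fold change of the members was −0.62 on Day 2, −0.82 on Day 3 and −0.77 on Day 4, while the median of all genes tested was 0.02, 0.01 and 0.01. These comparisons share the Log phase libraries.

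Summed over the 45 genes, the level was 3422 and 3487 CPM in Log phase, 1973 and 2117 CPM on Day 2, 2051 and 1970 CPM on Day 3, and 2014 and 1889 CPM on Day 4. Every colony library lay below both Log phase libraries in this sum, and the colony days overlapped each other. In bulk samples such as these, fewer cells in S phase and less RNA per cell cannot be told apart. When libraries were scaled to total counts instead, the median of all genes moved up by 0.38, 0.40 and 0.44 against Log phase on Day 2, Day 3 and Day 4. The members then split into 6 higher and 15 lower on Day 2, 5 and 21 on Day 3, and 5 and 20 on Day 4, with medians of −0.24, −0.41 and −0.33. Under that scaling 43.5% of all genes rose and 16.2% fell on Day 2, 45.6% and 24.2% on Day 3, and 48.1% and 26.5% on Day 4. Counting only calls made under every alternative tried, 13 of the 28 lower calls remained on Day 2, 20 of the 32 on Day 3 and 20 of the 31 on Day 4. Over the fits that left out 1 library each, 18, 25 and 24 of the lower calls were made every time. Those on Day 3 included POL1, POL2, POL30, POL32, MCM2, MCM3, MCM6, ORC2, ORC3, CDC45, CDC9 and RAD27.

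Markers of other cell states moved with the same days, and their part in the result was not tested. The 8 stationary phase genes, among them HSP12 and HSP26, all rose on each day, and their summed level was 2122 and 1996 CPM in Log phase, 15200 and 10460 CPM on Day 2, 45330 and 41440 CPM on Day 3, and 46660 and 46530 CPM on Day 4. Of 10 meiotic genes, which include IME2 and REC8 and belong to another programme that replicates DNA, 4, 4 and 8 rose (40%, 40% and 80%), of which the first 2 shares are near the 28.3% and 34.5% of all genes. Their sum was 60.3 and 53.6 CPM in Log phase, 75.1 and 83.6 CPM on Day 2, 109.8 and 111 CPM on Day 3, and 169 and 169 CPM on Day 4. Of 4 genes that mark alpha cells, the other mating type, 1, 3 and 3 rose (25%, 75% and 75%), beside 28.3%, 34.5% and 37.2% of all genes. The count of STE3 among the 4 is uncertain. Their sums were 33.9 and 34.5 CPM in Log phase, 44.3 and 31.9 CPM on Day 2, 129 and 119 CPM on Day 3, and 367 and 314 CPM on Day 4. No gene of the 3 lists was at 0 in any library.

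**Figure D1:**
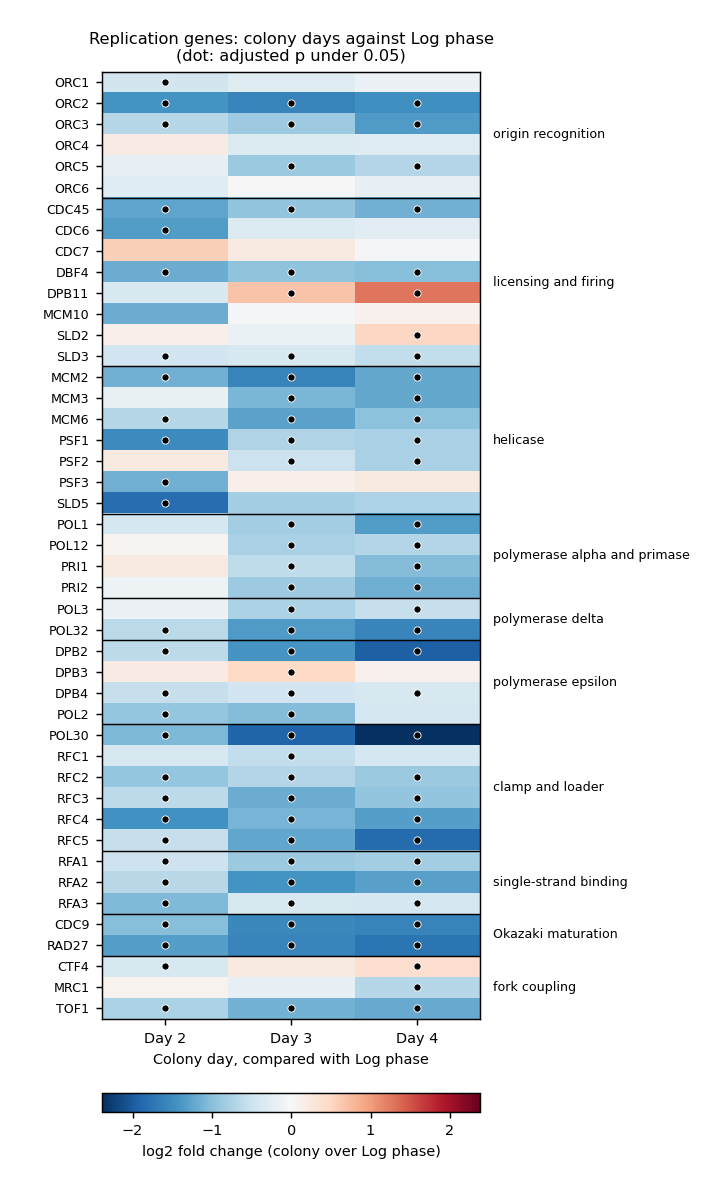
Log2 fold change of each of the 45 replication genes (rows, grouped by role) on Day 2, Day 3 and Day 4 against Log phase (columns), where blue is lower in the colony and a dot marks an adjusted p below 0.05. Blue with a dot fills most of the map, with 28, 32 and 31 genes lower on the 3 days, and DPB11 stands out in red on Day 4 at 1.28.

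The promoters of the genes were searched for the binding letters of the G1/S factors. The choice of members made no use of sequence, but it rested on known roles. Many such genes are known to be transcribed under MBF and SBF, so an excess of these letters is not an independent result. The MluI cell cycle box, ACGCGT, is bound by MBF and reads the same on both strands, and the Swi4 cell cycle box, CNCGAAA, is bound by SBF and was searched on both strands. ACGCGT stood in 21 of the 45 member promoters (46.7%), against 184 of all 6001 promoters (3.07%), where a promoter is the stretch from 250 bases before to 50 bases after the gene start. CNCGAAA stood in 11 of 45 (24.4%), against 829 of all 6001 (13.8%). Within the 250 bases before the gene start alone, CNCGAAA stood in 10 of 45 (22.2%), against 750 of all 6001 (12.5%). The 29 copies of ACGCGT began between 85 and 240 bases before the gene start, and 8 promoters held 2 copies. A match is a description of letters, not a bound site, and its absence says only that these letters are not in that window.

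The following windows show the motif in genes whose levels are described next, each 30 bases read 5′ to 3′ on the strand of its gene in RefSeq's R64 assembly. Capitals mark the motif on which the window is placed. The first 6 belong to genes that fell on Day 3 against Log phase, and the next 3 hold the same letters in genes that did not fall on that day. The last 2 show CNCGAAA, which in POL30 shares 1 base with the ACGCGT that follows it, in the MCM2 window as its reverse complement.
POL30, chrII:425944-425973, minus strand: ccaaaacgcgaaACGCGTaacttttttttt
CDC9, chrIV:167362-167391, minus strand: cttaacgcgaaaACGCGTgaaagtgaaatt
RAD27, chrXI:225986-226015, minus strand: ataggaaacgcgACGCGTaacatcgcgcaa
RFA2, chrXIV:48155-48184, plus strand: gccatatacgaaACGCGTtaggaaacgcgt
DPB2, chrXVI:888828-888857, plus strand: aaaagtgatgtgACGCGTtatttttcgcgt
POL1, chrXIV:429902-429931, plus strand: cctataagtaaaACGCGTcgcgtgtatcca
PSF3, chrXV:48767-48796, plus strand: agataaatgccgACGCGTagtgaaaatcgc
CTF4, chrXVI:799099-799128, plus strand: ctgtttaacgcgACGCGTaataaagtttcc
SLD2, chrXI:234305-234334, plus strand: cacatcacgtttACGCGTatggtgaaacac
POL30, chrII:425949-425978, minus strand: acgcaccaaaaCGCGAAAcgcgtaactttt
MCM2, chrII:177642-177671, minus strand: acaacgaaaaaTTTCGAGaaacgaaaccag

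Members fell both with and without ACGCGT. Against Log phase, 15, 16 and 16 of the 21 genes with the motif were lower on Day 2, Day 3 and Day 4. Their shares were 71.4%, 76.2% and 76.2%, with median log2 fold changes of −0.65, −0.94 and −1.15, and 0, 0 and 2 were higher. Of the 24 genes without it, 13, 16 and 15 were lower (54.2%, 66.7% and 62.5%) and 0, 2 and 1 higher. Their medians were −0.50, −0.59 and −0.73. Among all genes tested, 28.2%, 34.4% and 37.0% fell on those days, and 28.3%, 34.5% and 37.2% rose. The 5 genes with both motifs, CDC9, DPB2, POL30, POL32 and RFA1, fell on every one of the 3 days, with a median of −1.40 on Day 3. In RFA1 the CNCGAAA lies after the gene start, and the 250 bases before it hold none. The Day 2 calls of DPB2, POL32 and RFA1 each depended on single libraries, and without Log phase replicate 2 that of POL32 was lost at −0.36. Among the 18 with neither motif, which include all 6 ORC genes, 12 fell on Day 3, with a median of −0.49. The difference between these sets was not tested, because the members are not replicates of each other.

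**Figure D2:**
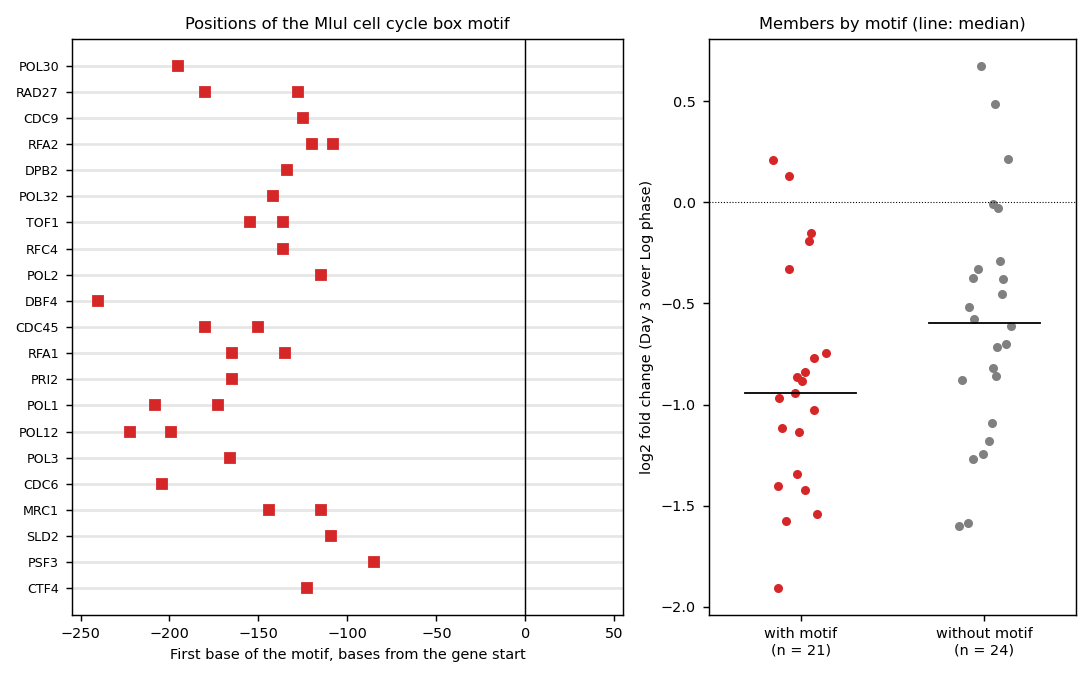
Left, distance in bases from the gene start to each of the 29 copies of the MluI cell cycle box in the 21 member promoters that hold it, with genes ordered by their Day 3 change. Right, log2 fold change of Day 3 over Log phase for members with and without the motif (points, spread sideways for sight; lines, medians of −0.94 and −0.59), which overlap over most of their range.

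Of the 6 subunits of the origin recognition complex, which marks origins, 3 (50%) fell on each of Day 2, Day 3 and Day 4, and none rose. Of all genes, 28.2%, 34.4% and 37.0% fell on those days, and 28.3%, 34.5% and 37.2% rose. ORC2 fell most on Day 3. Its level was 131 and 131 CPM in Log phase, 41.7 and 55 CPM on Day 2, 41.5 and 44.9 CPM on Day 3, and 52.2 and 43 CPM on Day 4. All 6 colony libraries lay below both Log phase libraries, and the Day 3 change was −1.60 ± 0.17 (adjusted p = 2.26e-08). ORC3 was at 109 and 107 CPM in Log phase, 61.8 and 73 CPM on Day 2, 61.1 and 57.9 CPM on Day 3, and 40.3 and 44.6 CPM on Day 4. The changes, both called, were −0.86 ± 0.16 (adjusted p = 4.94e-05) on Day 3 and −1.35 ± 0.16 (adjusted p = 9.65e-08) on Day 4.

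ORC6, a subunit needed to load the helicase, had the smallest change of the complex on Day 3. It stood at 133 and 141 CPM in Log phase, 113 and 111 CPM on Day 2, 131 and 142 CPM on Day 3, and 119 and 119.6 CPM on Day 4. The Day 3 and Log phase libraries overlapped, and the change was −0.01 ± 0.14 (adjusted p = 0.965). Scaling to total counts turned its direction on Day 3, to 0.39 with an adjusted p of 0.0192 by edgeR. ORC1, an ATP-binding subunit, was at 85.3 and 88.9 CPM in Log phase, 68 and 61.2 CPM on Day 2, 65.6 and 76.8 CPM on Day 3, and 88.5 and 70.6 CPM on Day 4. It fell on Day 2, at −0.43 ± 0.17 (adjusted p = 0.0306), a call that was lost when Log phase replicate 1, Log phase replicate 2 or Day 2 replicate 2 was left out, and in tailed reads alone its change was 0.19. ORC5 fell on Day 3 (−0.88 ± 0.20) and Day 4 (−0.71 ± 0.20). Its Day 3 call was lost in tailed reads (−0.46), and its Day 4 call with scaling to total counts (−0.27). ORC4 did not pass the test on any day against Log phase, with changes of 0.20 ± 0.22, −0.33 ± 0.22 and −0.31 ± 0.22.

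Of the 8 members that license origins and fire them, 4, 3 and 3 were lower and 0, 1 and 2 higher on Day 2, Day 3 and Day 4. The lower shares were 50%, 37.5% and 37.5%, beside 28.2%, 34.4% and 37.0% of all genes. Those of Day 3 and Day 4 are near the shares of all genes. The higher shares were 0%, 12.5% and 25%, beside 28.3%, 34.5% and 37.2% of all genes. DBF4 encodes the regulatory subunit of the kinase that opens origins, and its level was 48.3 and 45.4 CPM in Log phase, 18.6 and 22.6 CPM on Day 2, 23 and 24.9 CPM on Day 3, and 24.3 and 21.9 CPM on Day 4. Every colony library was below both Log phase libraries, and the changes were −1.18 ± 0.21 (adjusted p = 3.51e-05), −0.97 ± 0.20 (adjusted p = 0.000181) and −1.02 ± 0.20 (adjusted p = 8.94e-05) on the 3 days. CDC7, which encodes the catalytic subunit of that kinase, ranged from 4.56 to 10.4 CPM over the 8 libraries. It did not pass the test on any day, with changes of 0.56 ± 0.37, 0.21 ± 0.37 and −0.03 ± 0.37. The end of CDC7 overlaps another entry, YDL016C, and whether counting used the strand is not given in the sources used here. The same limit holds for POL30, RFC1, CDC6, DBF4, MCM3, DPB3 and CDC9, which also overlap another entry.

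CDC6, the ATPase that loads the MCM ring, was lowest on Day 2. Its level was 35.2 and 42.7 CPM in Log phase, 14 and 16.9 CPM on Day 2, 33.5 and 28.4 CPM on Day 3, and 33.5 and 31.6 CPM on Day 4. Both Day 2 libraries lay below the 6 others. The Day 2 change was −1.33 ± 0.21 (adjusted p = 1.46e-05) against Log phase, and Day 3 was above Day 2 by 0.99 ± 0.21 (adjusted p = 0.000496). In tailed reads alone neither call was made, with changes of −0.56 and 0.43. CDC45, which joins the ring to form the active helicase, fell on all 3 days, with changes of −1.25 ± 0.24, −0.94 ± 0.23 and −1.15 ± 0.23.

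DPB11, the scaffold that binds phosphorylated Sld2 and Sld3 and also activates the Mec1 checkpoint kinase, ran the other way. Its level was 24.9 and 24.8 CPM in Log phase, 20.3 and 18.4 CPM on Day 2, 44.8 and 34.6 CPM on Day 3, and 63.4 and 57.4 CPM on Day 4. Both Day 4 libraries were the highest of the 8, Day 3 came next, and Day 2 lay below Log phase. The change was 1.28 ± 0.20 (adjusted p = 3.96e-06) on Day 4 and 0.68 ± 0.20 (adjusted p = 0.00459) on Day 3, and on Day 2 it did not pass the test at −0.36 ± 0.21 (adjusted p = 0.144). The Day 4 call held in every alternative tried, whereas the Day 3 call was lost in tailed reads, at 0.47, and without Day 3 replicate 1, at 0.48 with an adjusted p of 0.0767 by edgeR.

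Of the 2 kinase targets that Dpb11 binds, SLD2 rose on Day 4 and SLD3 fell on all 3 days. SLD2 was at 24.4 and 30.05 CPM in Log phase, 25.6 and 33.4 CPM on Day 2, 26.4 and 22.6 CPM on Day 3, and 38 and 38.6 CPM on Day 4. It rose on Day 4 by 0.49 ± 0.21 (adjusted p = 0.0374), but leaving out Log phase replicate 1 or either Day 4 library ended that call, and in tailed reads the change was −0.56. SLD3 was at 73.7 and 78.8 CPM in Log phase, 57.4 and 53.9 CPM on Day 2, 59.2 and 57.9 CPM on Day 3, and 54.9 and 46.6 CPM on Day 4. It was lower on all 3 days, with changes of −0.45 ± 0.17 (adjusted p = 0.0234), −0.38 ± 0.16 (adjusted p = 0.0446) and −0.59 ± 0.17 (adjusted p = 0.0029), and none of the 3 calls held in tailed reads. The Day 3 call was also lost without any 1 of the Log phase, Day 3 or Day 4 libraries and with a replicate block (adjusted p = 0.0551), the Day 2 call without either Log phase library or Day 2 replicate 2, and the Day 4 call without Day 4 replicate 2. MCM10, which helps to activate the loaded helicase, had 2 to 28 counts per library, or 0.575 and 4.27 CPM in Log phase, 0.312 and 1.64 CPM on Day 2, 2.12 and 2.55 CPM on Day 3, and 3.24 and 1.89 CPM on Day 4. The Log phase and Day 2 replicates of MCM10 each differed over 5-fold, and no comparison passed the test (Day 3 change −0.03 ± 0.76).

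**Figure D3:**
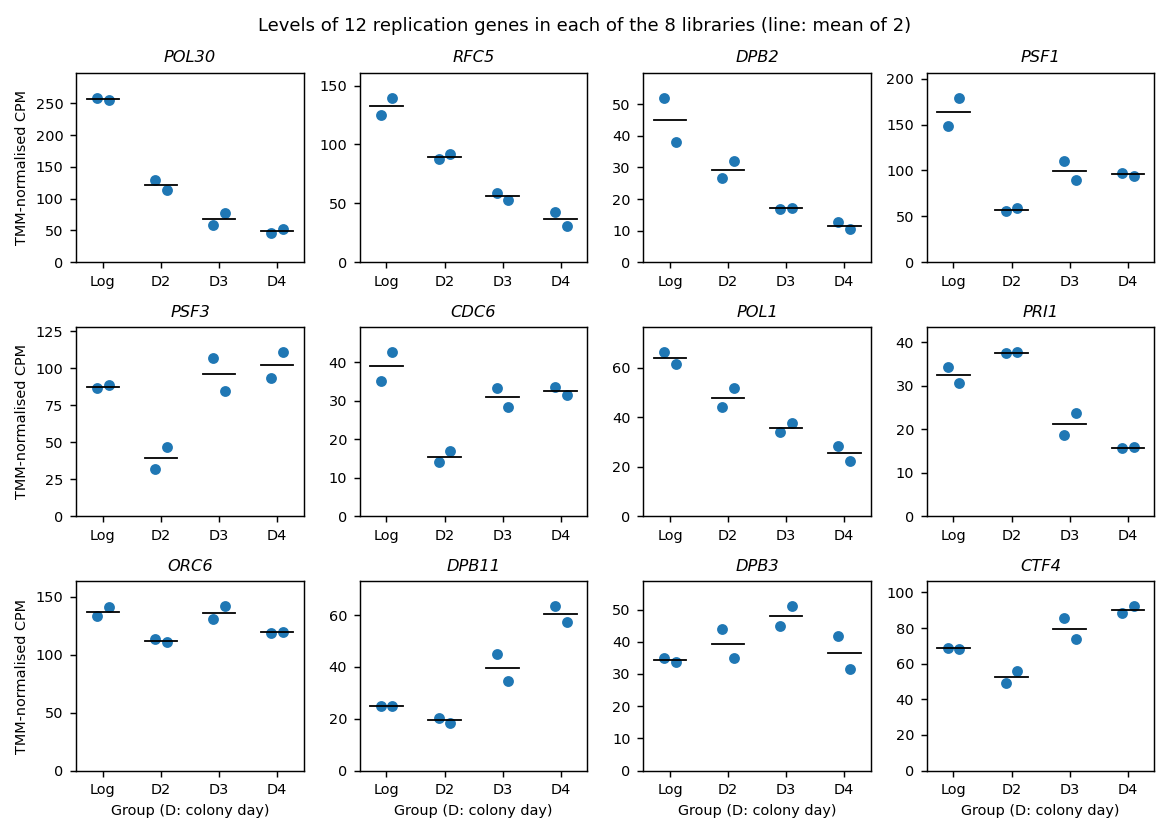
TMM-normalised CPM of 12 replication genes in each of the 8 libraries, with groups in the order Log phase, Day 2, Day 3 and Day 4 and a line at the mean of the 2 libraries. POL30, RFC5, DPB2 and POL1 step down from day to day, PSF1, PSF3 and CDC6 are lowest on Day 2, and DPB11 is highest on Day 4.

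Among the 7 helicase genes, 5 (71.4%) fell on each of Day 2, Day 3 and Day 4 and none rose. Of all genes, 28.2%, 34.4% and 37.0% fell on those days. MCM2, a subunit of the ring, was at 42 and 39.7 CPM in Log phase, 14.7 and 22 CPM on Day 2, 13.4 and 13.8 CPM on Day 3, and 17.2 and 17.7 CPM on Day 4. All colony libraries lay below both Log phase libraries, with changes of −1.14 ± 0.23 (adjusted p = 0.000161), −1.58 ± 0.23 (adjusted p = 1.88e-06) and −1.23 ± 0.23 (adjusted p = 3.8e-05). The Day 2 call was absent in tailed reads, at −0.16. The ring subunit MCM3 did not pass the test on Day 2 (−0.17 ± 0.21) and fell on Day 3 (−1.09 ± 0.22) and Day 4 (−1.22 ± 0.22), and MCM6 fell on all 3 days (−0.68 ± 0.26, −1.27 ± 0.26 and −0.98 ± 0.26). The Day 2 call of MCM6 was lost without Log phase replicate 1 (−0.39) or either Day 2 library, and its Day 4 call without Log phase replicate 1 (−0.69). The other 3 ring subunits are not among the 45 genes and were singled out after their values were seen. On Day 2, MCM4, MCM5 and MCM7 changed by 0.02 ± 0.17, 0.05 ± 0.21 and 0.05 ± 0.19 and did not pass the test. On Day 4, MCM5 and MCM7 fell, with changes of −0.93 ± 0.21 and −0.74 ± 0.19, and MCM4 was at −0.27 ± 0.17 without passing.

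GINS, the 4-subunit complex that locks Cdc45 onto the ring, did not move as a unit. PSF1 was at 149 and 179 CPM in Log phase, 56 and 58.9 CPM on Day 2, 110.5 and 89.1 CPM on Day 3, and 97.3 and 94.5 CPM on Day 4, with both Day 2 libraries lowest. The changes were −1.51 ± 0.16 (adjusted p = 4.29e-08) on Day 2 and −0.72 ± 0.16 (adjusted p = 0.000326) on Day 3, and Day 3 was above Day 2 by 0.79 ± 0.16 (adjusted p = 0.000277). Its Day 3 call was lost in tailed reads, at −0.36. PSF3 was at 86.5 and 88.6 CPM in Log phase, 31.7 and 47.1 CPM on Day 2, 107 and 84.6 CPM on Day 3, and 93.4 and 111 CPM on Day 4. Its Day 2 libraries were the lowest of the 8, and its Day 3 and Day 4 libraries overlapped Log phase or lay above it. PSF3 fell on Day 2, at −1.14 ± 0.19 (adjusted p = 1.77e-05), was not called on Day 3 at 0.13 ± 0.18, and rose between Day 2 and Day 3 by 1.27 ± 0.19 (adjusted p = 6.19e-06).

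PSF2 ran the other way between Day 2 and Day 3. Its change was 0.21 ± 0.19 on Day 2, without passing the test, and it fell, with changes of −0.52 ± 0.20 (adjusted p = 0.0219) on Day 3 and −0.77 ± 0.20 (adjusted p = 0.00128) on Day 4. The Day 3 change against Day 2 was −0.73 ± 0.19 (adjusted p = 0.00332). Without Log phase replicate 1 or Day 3 replicate 1 the Day 3 call against Log phase was lost. SLD5, whose count is uncertain and ranged from 13 to 107 reads per library, fell on Day 2, at −1.82 ± 0.40. Day 3 was above Day 2 for SLD5 by 1.01 ± 0.41, a call lost in 7 of the 8 fits that left out a library.

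Polymerase alpha with primase, which makes the RNA-DNA primers, was the one group with no member called on Day 2, when 28.2% of all genes fell. All 4 of its genes fell on Day 3 and on Day 4, beside 34.4% and 37.0% of all genes. POL1, the catalytic subunit, was at 66.4 and 61.7 CPM in Log phase, 44 and 51.8 CPM on Day 2, 34 and 37.7 CPM on Day 3, and 28.4 and 22.6 CPM on Day 4. Both Day 4 libraries were the lowest of the 8, and the changes against Log phase were −0.42 ± 0.19 (adjusted p = 0.0608) on Day 2, −0.84 ± 0.19 (adjusted p = 0.000401) on Day 3 and −1.33 ± 0.19 (adjusted p = 1.42e-06) on Day 4. PRI1, the catalytic subunit of primase, was at 34.2 and 30.7 CPM in Log phase, 37.5 and 37.7 CPM on Day 2, 18.7 and 23.7 CPM on Day 3, and 15.6 and 15.9 CPM on Day 4. Its Day 2 libraries were the highest of the 8, although the Day 2 change of 0.21 ± 0.20 (adjusted p = 0.394) did not pass the test. It fell, with changes of −0.61 ± 0.21 (adjusted p = 0.0126) on Day 3 and −1.04 ± 0.21 (adjusted p = 0.000129) on Day 4. The Day 3 call was lost without Log phase replicate 1 (−0.53) or Day 3 replicate 1 (−0.45) and with scaling to total counts (−0.21).

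PRI2, the large primase subunit, changed by −0.13 ± 0.24 on Day 2 without passing the test. It fell, with changes of −0.86 ± 0.24 and −1.16 ± 0.25 on Day 3 and Day 4. The Day 3 call of PRI2 was lost with scaling to total counts (−0.46) and in tailed reads (−0.81). POL12, the second polymerase subunit, gave 0.06 ± 0.24, −0.77 ± 0.25 and −0.70 ± 0.25. The POL12 calls on Day 3 and Day 4 were lost in tailed reads (−0.12 and −0.22), with scaling to total counts (−0.37 and −0.26) and without Log phase replicate 2 (−0.57 and −0.51), the Day 3 call also without Day 3 replicate 1 and the Day 4 call without Day 4 replicate 2.

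Both members of polymerase delta, the lagging strand polymerase, fell on Day 3 and Day 4, beside 34.4% and 37.0% of all genes. Its subunit gene POL31 is not a member. POL32, a subunit that binds the sliding clamp, was at 34.6 and 49.8 CPM in Log phase, 26.2 and 27.8 CPM on Day 2, 15.2 and 18 CPM on Day 3, and 17.2 and 11 CPM on Day 4. The Day 3 and Day 4 libraries lay below those of Day 2, and the change was −1.34 ± 0.24 (adjusted p = 3.39e-05) on Day 3 and −1.58 ± 0.25 (adjusted p = 4.11e-06) on Day 4. POL3, the catalytic subunit, was at 49.1 and 46.5 CPM in Log phase, 39.8 and 47.2 CPM on Day 2, 24.6 and 32.3 CPM on Day 3, and 30.7 and 34.8 CPM on Day 4. One Day 2 library lay between the Log phase libraries, and the changes were −0.13 ± 0.20 (adjusted p = 0.582), −0.75 ± 0.20 (adjusted p = 0.00196) and −0.54 ± 0.20 (adjusted p = 0.0162). In tailed reads POL3 was not called on Day 3 (−0.26) or Day 4 (−0.28), and its Day 4 call was lost without Log phase replicate 1 or Day 4 replicate 1.

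In polymerase epsilon, the leading strand polymerase, 3, 3 and 2 of the 4 subunits fell on the 3 days and DPB3 rose on Day 3. The lower shares were 75%, 75% and 50%, beside 28.2%, 34.4% and 37.0% of all genes. DPB2, the essential second subunit, was at 52 and 38 CPM in Log phase, 26.5 and 32.1 CPM on Day 2, 17 and 17.1 CPM on Day 3, and 12.6 and 10.7 CPM on Day 4. Each day's libraries lay below those of the day before, with changes of −0.62 ± 0.22 (adjusted p = 0.0187), −1.40 ± 0.22 (adjusted p = 6.34e-06) and −1.95 ± 0.23 (adjusted p = 6.17e-08) against Log phase. Without Log phase replicate 1 or Day 2 replicate 1 the Day 2 call was lost, at −0.37 and −0.48. POL2, the catalytic subunit, was at 68.5 and 78.3 CPM in Log phase, 29.8 and 47.1 CPM on Day 2, 34.8 and 37.2 CPM on Day 3, and 58.5 and 50.8 CPM on Day 4. POL2 fell, with changes of −0.92 ± 0.20 (adjusted p = 0.000411) on Day 2 and −1.03 ± 0.20 (adjusted p = 8.39e-05) on Day 3, was not called on Day 4 at −0.43 ± 0.20 (adjusted p = 0.0543), and Day 4 was above Day 3 by 0.60 ± 0.20 (adjusted p = 0.0283).

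DPB3 and DPB4 encode the small histone-fold subunits. DPB3 was at 34.9 and 33.7 CPM in Log phase, 43.9 and 35 CPM on Day 2, 44.9 and 51 CPM on Day 3, and 41.7 and 31.6 CPM on Day 4. Both Day 3 libraries lay above both Log phase libraries, and the Day 3 rise was 0.48 ± 0.20 (adjusted p = 0.0351). That call was lost without either Log phase library or Day 3 replicate 2, and in tailed reads (0.41). DPB4, whose product also belongs to a chromatin remodelling complex, was at 65.8 and 70.1 CPM in Log phase, 49 and 44.3 CPM on Day 2, 51.5 and 47.8 CPM on Day 3, and 56.9 and 47.1 CPM on Day 4. It fell, with changes of −0.54 ± 0.17 (adjusted p = 0.0106), −0.45 ± 0.17 (adjusted p = 0.024) and −0.39 ± 0.17 (adjusted p = 0.0476), and scaling to total counts turned the Day 4 value to 0.06. The Day 4 call was also lost with a replicate block (adjusted p = 0.0526), with DESeq2's size factors or Wald test, with no filter on low counts, and without either Log phase library, Day 2 replicate 1 or Day 4 replicate 2 (−0.26). The Day 2 call was lost without Log phase replicate 2, and the Day 3 call without either Log phase library or Day 3 replicate 2.

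Of the 6 genes of the sliding clamp and its loader, 5, 6 and 5 fell on Day 2, Day 3 and Day 4, and none rose. The lower shares were 83.3%, 100% and 83.3%, beside 28.2%, 34.4% and 37.0% of all genes. POL30 encodes PCNA, the ring that holds polymerases on DNA, and its level was 258 and 254 CPM in Log phase, 129.5 and 113 CPM on Day 2, 58.2 and 78.2 CPM on Day 3, and 46.1 and 51.9 CPM on Day 4. The 4 groups did not overlap, and each later day was lower. The changes were −1.08 ± 0.16 (adjusted p = 4.83e-06), −1.91 ± 0.16 (adjusted p = 4.31e-10) and −2.39 ± 0.17 (adjusted p = 9.5e-12), the last being the largest fall of any member in the comparisons with Log phase. RFC5, a small loader subunit, was at 125 and 139 CPM in Log phase, 87.7 and 91.7 CPM on Day 2, 58.8 and 52.9 CPM on Day 3, and 42.8 and 31 CPM on Day 4, again without overlap between groups. RFC5 fell on all 3 days, with changes of −0.56 ± 0.17 (adjusted p = 0.00644), −1.24 ± 0.17 (adjusted p = 7.44e-07) and −1.84 ± 0.17 (adjusted p = 1.61e-09), and the Day 2 call was lost without Log phase replicate 2 (−0.48).

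POL30 and RFC5 lie tail to tail on chromosome II with 160 bases between them, RFC5 on the plus strand at 423765 to 424829 and POL30 on the minus strand at 424990 to 425766 (R64). Whether reads were counted by strand is not given in the sources used here. Some members have a nearer convergent neighbour, such as ORC6 at 52 bases and DPB2 at 57 bases. The small subunits RFC4, RFC2 and RFC3 fell on all 3 days. The changes of RFC4 were −1.44 ± 0.17, −1.12 ± 0.16 and −1.32 ± 0.17, those of RFC2 were −0.93 ± 0.18, −0.70 ± 0.17 and −0.89 ± 0.18, and those of RFC3 were −0.62 ± 0.16, −1.18 ± 0.17 and −0.93 ± 0.16, where the Day 2 call was lost without Log phase replicate 1 (−0.46). These small subunits also serve in loaders built around Rad24, Ctf18 or Elg1. RFC1, the large subunit of the replication loader alone, was at 33.3 and 33.4 CPM in Log phase, 22.3 and 28.9 CPM on Day 2, 21 and 23.6 CPM on Day 3, and 23.7 and 26.2 CPM on Day 4. It fell on Day 3, at −0.58 ± 0.21 (adjusted p = 0.0181), a call lost without Log phase replicate 1, Log phase replicate 2 or Day 3 replicate 1, and was not called on Day 2 (−0.37 ± 0.21) or Day 4 (−0.42 ± 0.21).

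All 3 subunits of RPA, which coats single-stranded DNA, fell on each day, beside 28.2%, 34.4% and 37.0% of all genes. Some of the RPA calls depended on single libraries. RFA2 was at 97.8 and 89.4 CPM in Log phase, 58.7 and 60.3 CPM on Day 2, 38.6 and 31.4 CPM on Day 3, and 39.6 and 36.7 CPM on Day 4. The Day 3 and Day 4 libraries lay below those of Day 2, and the changes were −0.65 ± 0.17 (adjusted p = 0.00219), −1.42 ± 0.17 (adjusted p = 1.42e-07) and −1.29 ± 0.17 (adjusted p = 4.45e-07). RFA3, the smallest subunit, was at 264 and 279 CPM in Log phase, 138 and 125 CPM on Day 2, 248 and 171 CPM on Day 3, and 213 and 195 CPM on Day 4. Its lowest libraries were those of Day 2, where it fell by 1.05 ± 0.17 (adjusted p = 1.2e-05), and Day 3 was above Day 2 by 0.67 ± 0.17 (adjusted p = 0.00181). The smaller falls of RFA3 on Day 3, −0.37 ± 0.16 (adjusted p = 0.0469), and Day 4, −0.41 ± 0.16 (adjusted p = 0.0272), turned to 0.03 on both days when scaled to total counts. Both calls were lost without any 1 of the Log phase libraries or the Day 4 libraries, and that on Day 3 also without Day 3 replicate 2 (−0.13). Without Day 3 replicate 1 the change of RFA3 between Day 2 and Day 3 was not called (0.38). RFA1, the large DNA-binding subunit, fell, with changes of −0.50 ± 0.20, −0.88 ± 0.20 and −0.83 ± 0.20. Its Day 2 call was lost without Log phase replicate 1 (−0.40), Log phase replicate 2, Day 2 replicate 2 (−0.38) or Day 4 replicate 1, and in tailed reads (−0.31).

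Both members that finish Okazaki fragments fell on each day, beside 28.2%, 34.4% and 37.0% of all genes. Other genes of this step, such as DNA2, are not members. RAD27, the flap nuclease that trims the primer end, was at 127 and 137 CPM in Log phase, 48.9 and 56.7 CPM on Day 2, 45.6 and 43.1 CPM on Day 3, and 37.8 and 41.4 CPM on Day 4. CDC9, the DNA ligase that seals the nick, was at 139 and 170.3 CPM in Log phase, 74 and 79.3 CPM on Day 2, 52.3 and 53.8 CPM on Day 3, and 48.1 and 53.7 CPM on Day 4. For both genes all 6 colony libraries lay well under both Log phase libraries. The changes were −1.32 ± 0.16 (adjusted p = 3.24e-07), −1.57 ± 0.16 (adjusted p = 1.02e-08) and −1.74 ± 0.16 (adjusted p = 1.72e-09) for RAD27. For CDC9 they were −1.01 ± 0.16 (adjusted p = 9.93e-06), −1.54 ± 0.16 (adjusted p = 1.13e-08) and −1.60 ± 0.16 (adjusted p = 5.03e-09).

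The 3 genes of fork coupling each behaved differently. TOF1, part of the complex that slows and protects the fork, was at 34.1 and 33.7 CPM in Log phase, 21.4 and 18.9 CPM on Day 2, 16.5 and 14.3 CPM on Day 3, and 14.6 and 14.9 CPM on Day 4. All colony libraries lay below Log phase, and it fell on all 3 days, with changes of −0.75 ± 0.22 (adjusted p = 0.0051), −1.14 ± 0.22 (adjusted p = 7.75e-05) and −1.20 ± 0.22 (adjusted p = 3.59e-05). MRC1, which carries the checkpoint signal at stalled forks and binds Tof1, was at 24.1 and 15.8 CPM in Log phase, 22 and 20.7 CPM on Day 2, 14.3 and 20.8 CPM on Day 3, and 12.6 and 12.5 CPM on Day 4. Its 2 Log phase libraries enclosed all 4 libraries of Day 2 and Day 3 but one, which lay lower, and it fell on Day 4 alone, at −0.68 ± 0.26 (adjusted p = 0.0244), a call lost without Log phase replicate 1 (−0.34) or either Day 4 library. CTF4, which joins polymerase alpha to the helicase, was at 69 and 68.5 CPM in Log phase, 49.2 and 56 CPM on Day 2, 85.4 and 73.7 CPM on Day 3, and 88.4 and 92.3 CPM on Day 4. It fell on Day 2, at −0.38 ± 0.16 (adjusted p = 0.047), while on Day 4 it rose by 0.39 ± 0.16 (adjusted p = 0.0288) and Day 3 was above Day 2 by 0.59 ± 0.16 (adjusted p = 0.0036). Leaving out either Log phase library or either Day 4 library ended the Day 2 and the Day 4 call of CTF4, the Day 2 call was also lost with a replicate block (adjusted p = 0.0609) and without Day 2 replicate 1 (−0.29), and in tailed reads its Day 4 change was −0.02.

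Between colony days the share of members called was nearer that of all genes. From Day 2 to Day 3, 7 of 45 rose (15.6%) and 15 fell (33.3%), beside 24.2% of all genes that rose and 25.2% that fell, and the median change was −0.27 against −0.01 for all genes. This comparison shares the Day 2 libraries with that of Day 2 against Log phase. The 7 that rose were PSF1, PSF3, SLD5, CDC6, RFA3, CTF4 and DPB11. Among the 15 that fell were POL30 (−0.83 ± 0.16), MCM3 (−0.92 ± 0.21), PRI1 (−0.82 ± 0.21), POL12 (−0.83 ± 0.25), RFA2 (−0.77 ± 0.17) and DPB2 (−0.79 ± 0.22). Without Day 3 replicate 1 the calls of SLD5, RFA3 and CTF4 were among those lost. Under every alternative tried, 3 of the 7 rises were called, those of PSF1, PSF3 and DPB11. The same held for 5 of the 15 falls, those of POL30, RFA2, RFC5, MCM3 and DPB2. In tailed reads alone PRI1 was not called (−0.56), and POL12 turned to 0.38.

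From Day 3 to Day 4, 3 rose (6.67%) and 3 fell (6.67%), beside 11.8% and 14.6% of all genes. DPB11 rose by 0.61 ± 0.19 (adjusted p = 0.0218), SLD2 by 0.64 ± 0.21 (adjusted p = 0.0248) and POL2 by 0.60 ± 0.20 (adjusted p = 0.0283). RFC5 fell by 0.60 ± 0.17 (adjusted p = 0.0135), ORC3 fell by 0.49 ± 0.16 (adjusted p = 0.0299) and POL30 fell by 0.48 ± 0.17 (adjusted p = 0.036). Each of these 6 calls was lost in at least 1 fit that left out a library, and scaling to total counts gave 3 higher and 1 lower.

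The median poly(A) tail of replication mRNAs moved with that of all genes. Tail length could be tested for 44 of the 45, all but MCM10, in a test of 5388 genes that had 10 or more tailed reads in each library. The median tail of the 44 was 19.5 and 19.5 nt in Log phase, 20.3 and 20.3 nt on Day 2, 19.2 and 18.7 nt on Day 3, and 18.6 and 18.2 nt on Day 4. Over all genes tested it was 19.7 and 19.1 nt in Log phase, 20.4 and 20.5 nt on Day 2, 18.2 and 18.3 nt on Day 3, and 18.1 and 17.9 nt on Day 4. Both medians were highest on Day 2, and within each library they differed by less than 1 nt.

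Between Day 2 and Day 3, 6 of the 44 tails shortened, or 13.6%, beside 21.8% of all genes tested by limma, and none lengthened, beside 0.241%. They belonged to POL30, POL32, ORC1, ORC3, SLD3 and DPB3. POL30 tails were 12.1 and 11.5 nt in Log phase, 14 and 13.4 nt on Day 2, 11.8 and 11.2 nt on Day 3, and 12.3 and 11.2 nt on Day 4. Both Day 2 libraries were the longest of the 8, and the change from Day 2 to Day 3 was −2.12 ± 0.61 (adjusted p = 0.0401) nt. ORC3 tails were 17.4 and 17.8 nt in Log phase, 21 and 20.1 nt on Day 2, 17.5 and 17.2 nt on Day 3, and 16.8 and 16.2 nt on Day 4. Again Day 2 was highest, with a change of −3.21 ± 0.75 (adjusted p = 0.0237) nt from Day 2 to Day 3.

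The largest shortening among these was that of POL32, whose tails were 21.4 and 22.6 nt in Log phase, 23 and 23.8 nt on Day 2, 17 and 18.6 nt on Day 3, and 15.4 and 19.6 nt on Day 4. The change was −5.36 ± 1.38 (adjusted p = 0.0303) nt, resting on 35 to 97 tailed reads per library. DPB3 tails were 25.6 and 23.4 nt in Log phase, 25.7 and 29.1 nt on Day 2, 23.2 and 21 nt on Day 3, and 24.2 and 24.4 nt on Day 4, and the change was −5.32 ± 1.35 (adjusted p = 0.0294) nt. ORC1 tails were 15.3 and 15.1 nt in Log phase, 16.8 and 15.6 nt on Day 2, 14.2 and 12.6 nt on Day 3, and 13.3 and 13.5 nt on Day 4. SLD3 tails were 18.2 and 17.6 nt in Log phase, 19.6 and 19.2 nt on Day 2, 16 and 16.4 nt on Day 3, and 16.3 and 18 nt on Day 4. ORC1 and SLD3 changed by −2.78 ± 0.76 (adjusted p = 0.0358) and −3.15 ± 0.81 (adjusted p = 0.0303) nt. None of the 6 calls held when a Day 3 library was left out, where 0 members were called.

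Against Log phase a single member was called. DPB4 tails were 26 and 24.4 nt in Log phase, 25.1 and 23.7 nt on Day 2, 20.9 and 22.5 nt on Day 3, and 19.5 and 20.9 nt on Day 4. Both Day 4 libraries lay below those of Log phase and Day 2, and the Day 4 change was −4.99 ± 1.06 (adjusted p = 0.0257) nt, where 8.61% of all genes shortened and 1.19% lengthened by limma. That call was lost when either Log phase library or either Day 4 library was left out. On Day 2 and Day 3 against Log phase, and from Day 3 to Day 4, limma called 0 members in either direction, although 8, 8 and 6 had an unadjusted p below 0.05. Across all genes 1.10% lengthened and 0.0928% shortened on Day 2, 0.223% lengthened and 2.02% shortened on Day 3, and 0 were called from Day 3 to Day 4. POL30 had the shortest tails of the 44 in all 8 libraries. Its neighbour RFC5 had the longest in 6 of them, between 26.6 and 28.4 nt in all 8, so the ends assigned to the 2 convergent genes carried different tails.

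**Figure D4:**
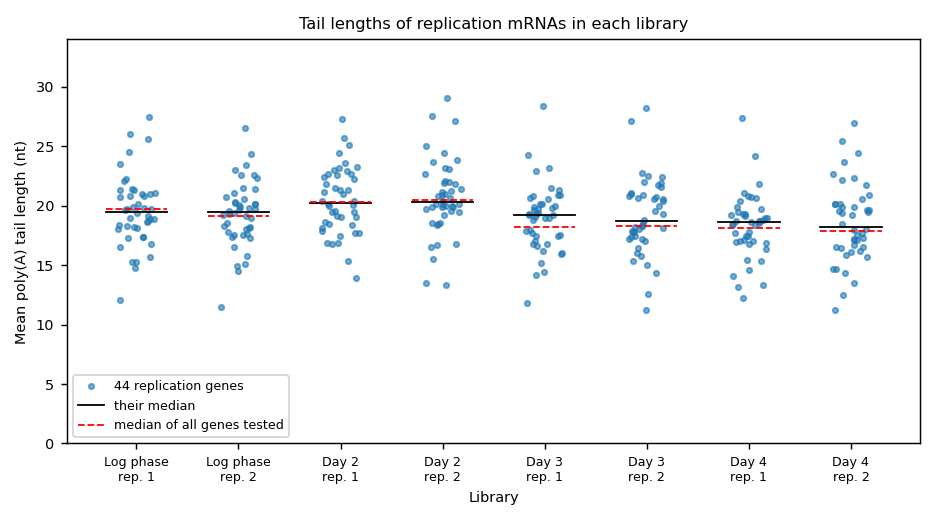
Mean poly(A) tail length in nt of each of the 44 replication genes tested (points) in the 8 libraries, with their median (solid line) and the median of all 5388 genes tested (dashed line). Both medians are highest on Day 2 at 20.3 to 20.5 nt, and the lowest point in every library is POL30.

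Other genes of the fork, beyond the 45, were lower on Day 2 in a share close to that of all genes, and most were lower on Day 4. Of 25, among them clamp loaders, topoisomerases and histone chaperones, 0 rose and 8 fell on Day 2, 0 and 11 on Day 3, and 1 and 16 on Day 4, with medians of −0.14, −0.42 and −0.65. The lower shares were 32%, 44% and 64%, beside 28.2%, 34.4% and 37.0% of all genes. CTF18, of an alternative clamp loader, fell by 1.65 ± 0.23 on Day 3. The histone chaperone gene ASF1 fell by 1.22 ± 0.20, and SPT16, of the chaperone FACT, fell by 0.80 ± 0.15. The 1 that rose on Day 4 was TAH11, the yeast Cdt1 that brings the MCM ring to origins, at 0.97 ± 0.22. Whether the 45 and the 25 differ was not tested.

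Of 13 genes that supply deoxynucleotides, 3 rose and 5 fell on Day 2 (23.1% and 38.5%), 1 and 7 on Day 3 (7.69% and 53.8%), and 2 and 7 on Day 4 (15.4% and 53.8%), beside the shares of all genes given above. One of the 13, YNK1, is uncertain, since its count is far above the reads of the gene table. RNR1, the large subunit of ribonucleotide reductase, fell, with changes of −1.64 ± 0.18 (adjusted p = 4.89e-08), −1.84 ± 0.18 (adjusted p = 3.33e-09) and −2.50 ± 0.18 (adjusted p = 1.97e-11). DUT1, the dUTPase, did not pass the test on Day 2 (0.01 ± 0.17) and fell, with changes of −1.64 ± 0.18 and −2.28 ± 0.18 on Day 3 and Day 4. CDC21, the thymidylate synthase, fell, with changes of −0.48 ± 0.16, −1.47 ± 0.16 and −1.67 ± 0.16. The small reductase subunits RNR2 and RNR4 rose on Day 2 by 0.41 ± 0.14 and 0.61 ± 0.15, and the alternative large subunit RNR3 rose on Day 4 by 1.60 ± 0.28 (adjusted p = 2.25e-05).

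Of the 21 regulators of the G1/S step that could be tested, 0 rose and 12 fell on Day 2 (57.1%), 2 and 11 on Day 3 (52.4%), and 2 and 10 on Day 4 (47.6%), with 28.2%, 34.4% and 37.0% of all genes lower. CDC34 among them is uncertain, with a count below that of the gene table. The G1 cyclin gene CLN2 fell, with changes of −1.38 ± 0.17 (adjusted p = 3.23e-07), −2.09 ± 0.17 (adjusted p = 2.29e-10) and −2.34 ± 0.18 (adjusted p = 2.87e-11). Those of its partner CLN1, which also fell, were −1.31 ± 0.15, −1.04 ± 0.15 and −1.84 ± 0.16. NRM1, a repressor of MBF that is itself an MBF target, fell, with changes of −1.33 ± 0.21, −1.81 ± 0.22 and −2.72 ± 0.23. SIC1, the inhibitor of S phase cyclin kinase, fell on Day 2 (−0.57 ± 0.17) and rose on Day 3 (0.39 ± 0.17) and Day 4 (0.46 ± 0.17). The subunits of the factors that bind the 2 motifs were looked up after other values were seen. SWI6, shared by MBF and SBF, fell, with changes of −0.56 ± 0.21, −0.84 ± 0.21 and −1.65 ± 0.22. MBP1, which binds ACGCGT, fell on Day 2 (−0.43 ± 0.17) and was not called on Day 3 (−0.02 ± 0.17) or Day 4 (0.25 ± 0.17), and SWI4 was not called on any day (0.44 ± 0.32, −0.12 ± 0.33 and −0.07 ± 0.33).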

How the data were processed

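Per the labels, total RNA went into PAT-seq libraries that were run on a SOLiD sequencer with a read length of 75 bases. The authors deposited raw counts for each gene in each library, raw counts of tailed reads, and mean tail length in nt, a signal that is never negative. Their gene table, with coordinates, also gives the fraction of reads with a tail, deposited over all libraries together and not used in a test. Not given in the sources used here are the aligner, the genome build and whether counting used the strand. The coordinates of all 45 members were identical in R64.

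The expression test was the quasi-likelihood F test of edgeR 4.0.16 after TMM and filterByExpr, fitted to all 8 libraries with a mean for each group. Its SE is the size of the log2 fold change divided by the root of F. Tails were tested with limma 3.58.1 (empirical Bayes with a trend), for genes with 10 or more tailed reads in each library, weighted by tailed reads to a maximum of 100. P-values were adjusted by Benjamini-Hochberg over all genes tested. Both tests were tried on simulated data. Few genes were changed in these, and the simulated counts held no difference in scaling between libraries. They therefore cannot check the scaling or the error rate in the data used here. Alternatives covered DESeq2 1.42.0, scaling, filters, weights, tailed reads in place of all reads, a replicate block, a fit of the 4 libraries compared, and leaving out each library, where the lone library takes the spread of the other groups. No column lacked a sample. Intervals and p-values cover neither library preparation nor culture beyond what 2 libraries show.

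Entries are marked uncertain where the count table holds under 0.5 or over 2 times the reads of the gene table. Members and lists were chosen with earlier results of these data known. Values in every library are given for the members with the smallest and largest p in each role group on Day 3 against Log phase. They are also given for members among the 5 smallest p of a comparison between colony days, members higher than Log phase, and members with a called tail. Outside the members, up to 3 genes with the smallest p per list and direction are named, and exceptions are marked. Other software was R 4.3.3, Python 3.11.15, pandas 2.3.3, NumPy 2.4.6 and matplotlib 3.10.9.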

Additional observations from a re-analysis of the deposited data

How the results depend on the processing

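The limits are 2 libraries per group, low counts for MCM10 and SLD5, and a scaling that assumes most genes unchanged. The median of the members stayed negative against Log phase in every alternative tried. Scaling to total counts gave 6 higher and 15 lower members on Day 2, 5 and 21 on Day 3, 5 and 20 on Day 4, and 1 lower from Day 3 to Day 4. It turned the Day 3 changes of RFA3 (0.0262), ORC6 (0.39) and SLD3 (0.0204) and the Day 4 changes of RFA3 (0.0286) and DPB4 (0.0563). Tailed reads alone gave 0 higher on Day 3, 1 higher on Day 4 and 0 lower from Day 3 to Day 4. They turned ORC1 on Day 2 (0.19), RFA3 (0.12), SLD2 (−0.56) and CTF4 (−0.0224) on Day 4, and POL12 (0.38) and SLD5 (−0.63) between Day 2 and Day 3. The causes were not tested. DESeq2's Wald test gave 28, 30 and 30 lower members on the 3 days. Leaving out 1 library gave 1 to 2 higher members on Day 3, 1 to 3 on Day 4, 4 to 8 higher and 8 to 16 lower from Day 2 to Day 3, and 0 to 3 higher and 0 to 4 lower from Day 3 to Day 4.

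Libraries with the same replicate number shared no visible deviation (correlations of deviations −0.0349 to 0.00554). This cannot tell whether the libraries were paired, which the labels do not state. With a replicate block, 27, 31 and 30 members were lower on Day 2, Day 3 and Day 4, 14 fell from Day 2 to Day 3, and 2 tails were shorter on Day 4. For tails, a minimum of 30 tailed reads gave 1 longer on Day 2, 1 shorter on Day 3 and 2 shorter on Day 4, and no weights gave 3 shorter from Day 2 to Day 3. Leaving out 1 library gave 0 to 1 shorter on Day 3, 0 to 1 on Day 4 and 0 to 4 from Day 2 to Day 3, the lowest of these without either Day 3 library.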

Other observations

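Of 9 genes of cohesin, the ring that holds sister chromatids together from S phase on, 2 rose and 5 fell on Day 2, 2 and 6 on Day 3, and 2 and 6 on Day 4, against Log phase. The lower shares were 55.6%, 66.7% and 66.7%, beside 28.2%, 34.4% and 37.0% of all genes, and the count of RAD61 among the 9 is uncertain. SMC3, a core ring subunit, fell on all 3 days (−0.87 ± 0.20, −1.24 ± 0.20 and −1.53 ± 0.20, edgeR), and PDS5, which regulates the ring, fell on Day 3 (−2.03 ± 0.25) and Day 4 (−2.18 ± 0.25). SCC4, part of the loader, rose on all 3 days (1.70 ± 0.19, 1.20 ± 0.19 and 1.08 ± 0.19), while its partner SCC2, singled out after its values were seen, fell (−0.96 ± 0.19, −0.73 ± 0.19 and −0.50 ± 0.19). Of 14 translesion and mismatch repair genes, 2 rose on each day and 4, 5 and 5 fell. The lower shares, 28.6%, 35.7% and 35.7%, are near those of all genes, and the counts of 2 of the 14 are uncertain. REV3, the catalytic subunit of the mutagenic polymerase zeta, rose by 1.47 ± 0.21 (adjusted p = 3.15e-06), 2.10 ± 0.21 (adjusted p = 4.83e-09) and 2.31 ± 0.21 (adjusted p = 7.77e-10).

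Of 12 genes of the replication checkpoint, 1 rose and 2 fell on Day 2, 4 and 1 on Day 3, and 5 and 2 on Day 4. The higher shares on Day 3 and Day 4, 33.3% and 41.7%, are near the 34.5% and 37.2% of all genes. TEL1, a checkpoint kinase, rose by 0.86 ± 0.19 (adjusted p = 0.000482), 0.90 ± 0.19 (adjusted p = 0.000185) and 1.40 ± 0.19 (adjusted p = 4.59e-07). The kinase gene DUN1 fell on the same days (−0.71 ± 0.19, −0.82 ± 0.19 and −1.74 ± 0.20). Outside the 45 members, 153 other tested genes held ACGCGT in the same promoter window. Of these, 32%, 43.1% and 45.8% were lower on Day 2, Day 3 and Day 4 than in Log phase, with medians of −0.17, −0.38 and −0.43. Of the 5362 other genes without these letters, 28.4%, 35.1% and 37.8% were lower, with medians of 0.03, −0.01 and −0.02. Whether these sets differ was not tested.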
